A study of Mus musculus with 4 samples.

Results

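Polyamine synthesis was followed through 10 genes, *Amd1*, *Amd2*, *Odc1*, *Srm*, *Sms*, *Sat1*, *Oaz1*, *Oaz2*, *Azin1* and *Smox*, picked by symbol from the 23337 genes of the count table. All 10 symbols were found, and all 10 passed the filter on low counts. *Amd1* and *Amd2* entered because of their own difference between the groups in these libraries, so their values are given as a description and without a p-value. *Amd2* passed that filter through the libraries labelled *Sirt6* cKO alone.

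Polyamines are small positively charged molecules that bind nucleic acids and are needed for cell growth. Ornithine decarboxylase (*Odc1*) makes putrescine, and S-adenosylmethionine decarboxylase (*Amd1*, *Amd2*) makes the aminopropyl donor that spermidine synthase (*Srm*) and spermine synthase (*Sms*) use to extend putrescine to spermidine and spermine. Antizymes (*Oaz1*, *Oaz2*) bind ornithine decarboxylase and send it to the proteasome, the antizyme inhibitor (*Azin1*) takes up antizyme, and spermidine/spermine acetyltransferase (*Sat1*) and spermine oxidase (*Smox*) carry the way back.

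The cells were medullary thymic epithelial cells (mTECs), the cells of the thymic medulla that display tissue-restricted antigens to developing T cells. They were sorted as CD45-EpCAM+UEA-1+Ly51- from C57BL/6 mice at 4 weeks of age. WT libraries came from littermates or age-matched mice without Foxn1-Cre, and *Sirt6* cKO libraries from Foxn1-Cre *Sirt6* loxp/loxp mice, which the labels call Sirt6-/-. Foxn1-Cre was used to delete the gene in thymic epithelial cells, and its action in other cells was not analysed here. Each group had 2 libraries, described as independent and parallel, with no word on how many mice went into each, so p-values cover the spread between these libraries only. Values of a group are given for its library 1 and then its library 2, and *Sirt6* cKO 1 and 2 are names taken from the labels. Counts per library summed to between 61102704 and 65907745.

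The targeted gene was not lower where the labels say *Sirt6* cKO. *Sirt6* (chr10:81621785-81627797, minus strand), a histone deacetylase, had 622 and 755 counts in the WT libraries against 882 and 835 in those labelled *Sirt6* cKO. The fold change was 0.37 on the log2 scale (SE 0.32, edgeR quasi-likelihood test, adjusted p = 0.80), and both libraries labelled *Sirt6* cKO lay above both WT libraries. These counts cover the whole gene, and whether the deleted exons were read was not analysed here. Directions below are therefore those of the libraries as labelled. Of the mTEC markers, 8 of 8 were tested and none was at 0 in any library, while 3 passed the unadjusted threshold with edgeR, *Epcam* (log2 fold change 0.48), *Aire* (0.65) and *Cd80* (0.94), all higher under the *Sirt6* cKO label, against 5.27% of all genes tested. The other 5 did not pass and ran from *Fezf2* at -0.20 to *Krt5* at 0.89. In these sorted populations, fewer cells of a type and less RNA per cell cannot be told apart.

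*Amd1* lies at chr10:40287458-40302186 on the minus strand, with 8 exons, and *Amd2* at chr10:35708675-35711892 on the same strand, 4.58 Mb away, as 1 exon (GENCODE M21, GRCm38, the assembly of mm10). The transcript of *Amd1* (Amd1-201, 3204 bases) and that of *Amd2* (Amd2-201, 3218 bases) aligned over 3204 bases with 14 mismatches, an identity of 99.56%, and 2 internal gaps of 4 bases in all. Within the 1005 coding bases there was 1 mismatch, G1124C, counted from the first base of Amd1-201. The transcript of *Amd2* ended in a run of 17 A, and that of *Amd1* in 1. Of the 50-base words of *Amd1*, 86.1% also occurred in *Amd2*, and the longest run without a difference was 929 bases, so many reads could have come from either gene. The reference sequences around the coding mismatch are shown because the 41 bases differ only in the capital letter. They lie at chr10:40290166-40290206 and at chr10:35710744-35710784, on the minus strand.
Amd1: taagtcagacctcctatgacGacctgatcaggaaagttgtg
Amd2: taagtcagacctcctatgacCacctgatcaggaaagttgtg

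Around the transcript starts, the longest common run in the stretches read was 28 bases. It reached the last base of the *Amd1* stretch, so its length was set by the cut 30 bases after the start. In the aligned transcripts the first difference, a gap, lay at position 165 of the *Amd1* transcript, so the run went on past the cut. The windows below are from RefSeq on GRCm38.p6, minus strand, chr10:40302159-40302288 for *Amd1* and chr10:35711862-35711991 for *Amd2*. Each holds 100 bases before the start and 30 after it, and the capitals mark the run of 28 bases common to both.
Amd1: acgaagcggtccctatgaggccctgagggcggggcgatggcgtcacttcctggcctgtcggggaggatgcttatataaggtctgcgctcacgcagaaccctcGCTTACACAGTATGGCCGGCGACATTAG
Amd2: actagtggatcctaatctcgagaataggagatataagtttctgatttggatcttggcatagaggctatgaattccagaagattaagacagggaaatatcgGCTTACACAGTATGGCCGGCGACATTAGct
Of the 100 bases before the start, 31 were the same at the same position in both. That comparison was made without alignment and with the common run out of step, so it cannot measure how alike the copies are there. The letters TATAA, read on the strand shown, first lay 27 bases before the start of *Amd1* and 69 before that of *Amd2*. The shares that follow are for the full RefSeq windows, which are longer than the stretches shown, and for both strands. TATAA was found in the full windows of 3 of the 8 members that had one, and in 24.9% of 32851 full windows of all genes. CACGTG, the E-box bound by Myc and Max, was in the full window of 1 of the 8, *Sms*, and in 7.15% of all full windows.

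The counts of *Amd1* and *Amd2* changed places between the groups. *Amd1* had 13053 and 11726 counts in the WT libraries against 382 and 154 in those labelled *Sirt6* cKO. *Amd2* had 0 and 0 counts in the WT libraries against 14851 and 12178 in those labelled *Sirt6* cKO. Thus all S-adenosylmethionine decarboxylase counts of both WT libraries were booked to *Amd1*, and nearly all of those in the other libraries to *Amd2*. In counts per 1000000 (CPM, scaled with edgeR's TMM factors) *Amd1* was at 192 ± 10.7 (SD, n = 2) in WT and 4.36 ± 2.78 (n = 2) in the libraries labelled *Sirt6* cKO, 43.9-fold lower. *Amd2* was at 218 ± 39.7 CPM (n = 2) in the libraries labelled *Sirt6* cKO, at least 4688-fold higher than the level that 3 counts in each WT library would give. Of the summed counts, *Amd1* held 100% in each WT library, where a count of 0 allows a share booked to *Amd2* of up to 0.023% and 0.0256%. In *Sirt6* cKO 1 the share of *Amd1* was 2.51% (95% Clopper-Pearson interval 2.27 to 2.77) and in *Sirt6* cKO 2 it was 1.25% (1.06 to 1.46). These limits and intervals cover counting error only. They do not cover how reads that fit both copies were placed, so they do not bound the true share of either copy.

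**Figure D1:**
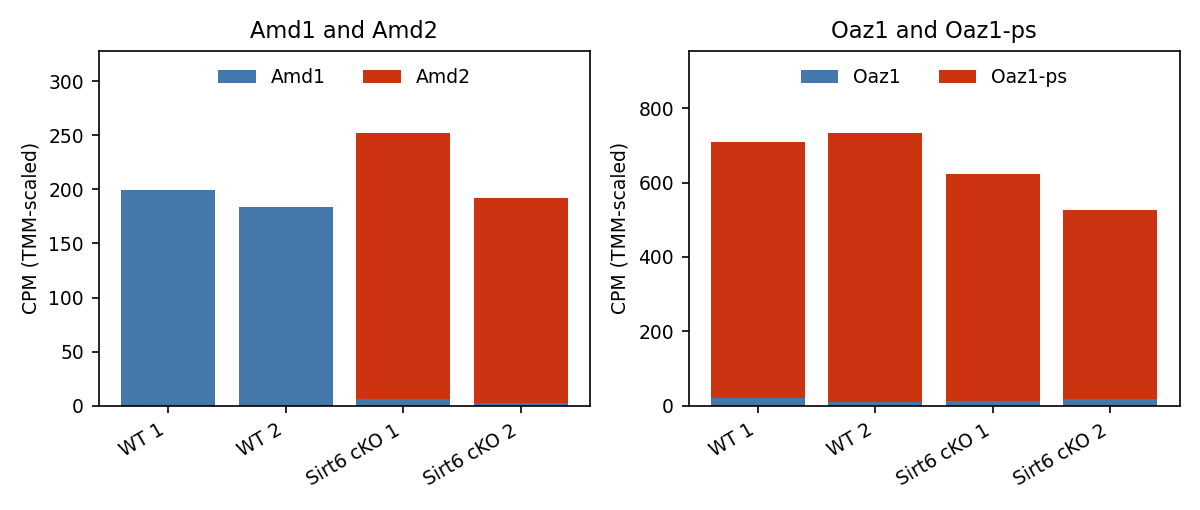
CPM of gene pairs with shared sequence, in each library, as bars from 0 on linear axes, stacked by the gene to which the counts were assigned. *Amd1* held all counts of its pair in both WT libraries and *Amd2* held 97.5% and 98.8% in those labelled *Sirt6* cKO, while *Oaz1-ps* held at least 96.7% of its pair in all 4 libraries.

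The sum of the copies does not depend on how reads were split between them, provided each read was counted once and in either row. Transcripts of 8 genes, *Amd2* among them, shared 50-base words with *Amd1*, and how the counting placed reads that fit several genes was not analysed here. *Amd1* plus *Amd2* had 13053 and 11726 counts in the WT libraries against 15233 and 12332 in those labelled *Sirt6* cKO. The sum was 192 ± 10.7 CPM in WT and 222 ± 42.5 CPM in the libraries labelled *Sirt6* cKO (n = 2 each), and the groups overlapped. The fold change of the sum was 0.21 on the log2 scale (SE 0.20, 95% interval -0.29 to 0.72), against an SD of 0.20 within the groups.

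Most of the differences between the transcripts lie after the coding part, which is also the longest part. The last of them, at positions 3199 to 3203 of Amd1-201, lie at its very end, where *Amd2* has its run of 17 A.

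**Figure D2:**
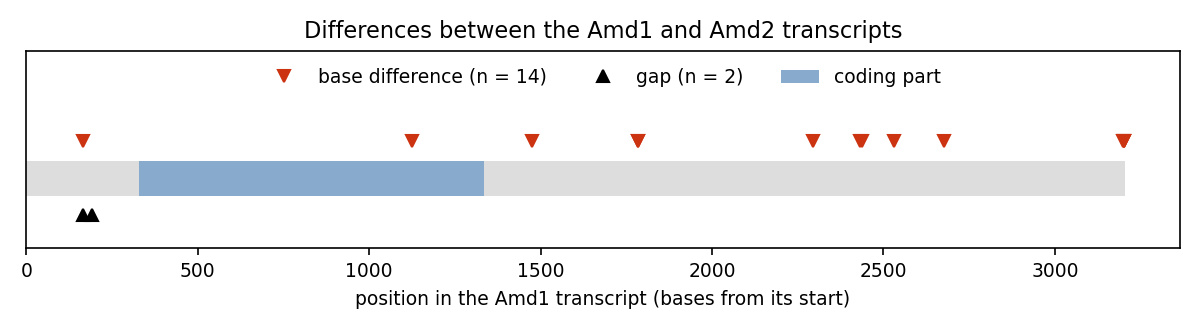
Positions of the 14 base differences and 2 gaps between the transcripts of *Amd1* and *Amd2*, in bases from the start of Amd1-201, with the coding part drawn from position 329 to 1333. Most differences fall after the coding part, and 1 falls within it.

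The genes beside *Amd1* and *Amd2* on the chromosome were read for the same contrast. The nearest tested genes on each side of *Amd1* were *Gtf3c6* at 29.4 kb (log2 fold change 0.19, SE 0.31) and *Cdk19* at 37.4 kb (0.01, SE 0.33). The nearest tested genes beside *Amd2* were *Hs3st5* at 795 kb (1.03, SE 0.82) and *Frk* at 1097 kb (0.09, SE 0.41). None of these 4 passed the unadjusted threshold of 0.05 with edgeR, which 8.58% of all genes tested passed. With so few genes, this count cannot show whether the surroundings of the copies changed.

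A partly similar case among the members was *Oaz1*, the main antizyme gene. *Oaz1* lies at chr10:80826656-80829290 on the plus strand, and *Oaz1-ps*, a processed pseudogene of 1 exon, at chr17:17345456-17346140 on the minus strand. Oaz1-201 has 1071 bases, and 52.2% of its 50-base words also occurred in *Oaz1-ps*, against 86.1% for *Amd1* in *Amd2*. Over 681 aligned bases the transcripts had 1 mismatch, G229C counted from the first base of Oaz1-201, and 1 gap of 4 bases. The reference sequences around it are shown because these copies too differ there in the capital letter only, at chr10:80826864-80826904 (plus strand) and chr17:17345996-17346036 (minus strand).
Oaz1: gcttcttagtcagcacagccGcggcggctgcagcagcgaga
Oaz1-ps: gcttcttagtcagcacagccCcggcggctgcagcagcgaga
*Oaz1* had 1436 and 692 counts in the WT libraries against 870 and 1104 in those labelled *Sirt6* cKO. *Oaz1-ps* had 45058 and 46031 counts in the WT libraries against 36742 and 32627. *Oaz1* thus held between 1.48% (Clopper-Pearson interval 1.37 to 1.59, in WT 2) and 3.27% (3.09 to 3.47, in *Sirt6* cKO 2) of the counts of the pair, and unlike with *Amd1* and *Amd2* the larger share stayed with the same copy in all 4 libraries. The fold change of *Oaz1* alone was -0.05 (SE 0.42, 95% interval -1.12 to 1.01), and the groups overlapped. The pair was then summed, a choice made after its values were seen. The sum was 722 ± 16.9 CPM in WT and 575 ± 68.8 CPM in the libraries labelled *Sirt6* cKO (n = 2 each), a log2 fold change of -0.33 (SE 0.16, 95% interval -0.73 to 0.06, edgeR unadjusted p = 0.0855), without overlap of the groups. With upper quartile scaling it was -0.41 (edgeR unadjusted p = 0.0416) and with library size alone -0.42 (edgeR unadjusted p = 0.0409). These 2 were the only ones of 12 alternatives under 0.05. DESeq2 gave -0.34 (unadjusted p = 0.108), and the adjusted p of the main edgeR fit was 0.638.

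Among the other 8 members, whose differences the choice of *Amd1* and *Amd2* did not use, 1 lay under an unadjusted 0.05 by edgeR. That member was *Srm*, which fell. Of all 18547 genes tested, 8.58% passed in either direction, 5.27% upward and 3.32% downward from WT, so 1 of 8 is near the background. Of the genes that passed, 61.4% were higher, against 48.4% with upper quartile scaling and 46.2% with library size alone. Neither edgeR (Benjamini-Hochberg over all genes tested) nor DESeq2 gave any of the 8, that is 0, an adjusted p under 0.05, and DESeq2 put 2 of them under an unadjusted 0.05. With edgeR 0.00539% of all genes tested, that is 1 gene and none of these 8, passed the adjusted threshold. The median log2 fold change of the 8 was 0.07, and that of all genes tested -0.005. The CPM values did not overlap between the groups for 5 of the 8, against 41.9% of all genes tested.

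*Srm* makes spermidine from putrescine (chr4:148591503-148594993, plus strand). It had 4322 and 4221 counts in the WT libraries against 2485 and 2734 in those labelled *Sirt6* cKO. Both libraries labelled *Sirt6* cKO were low, and the libraries of each group lay close together. In CPM, *Srm* fell from 66.2 ± 0.212 in WT to 41.9 ± 1.03 in the libraries labelled *Sirt6* cKO (n = 2 each), 63.3% of the WT level. The log2 fold change was -0.66 (SE 0.21, 95% interval -1.20 to -0.12), with an edgeR unadjusted p = 0.0246 and an adjusted p = 0.541. With any 1 library left out, *Srm* stayed lower, at -0.70 to -0.63, but its unadjusted p from edgeR lay between 0.0649 and 0.101.

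*Odc1*, the gene of the first committed step (chr12:17544794-17551505, plus strand), had 4982 and 3561 counts in the WT libraries against 1786 and 3077 in those labelled *Sirt6* cKO. The groups did not overlap, and the libraries differed within each. Its level was 66.0 ± 14.3 CPM in WT and 38.8 ± 13.0 CPM in the libraries labelled *Sirt6* cKO (n = 2 each), a log2 fold change of -0.77 (SE 0.33, 95% interval -1.60 to 0.06, edgeR unadjusted p = 0.0643, adjusted p = 0.61). DESeq2 put it under an unadjusted 0.05. With a library left out it lay between -0.46 (edgeR unadjusted p = 0.255, without *Sirt6* cKO 1) and -1.17 (edgeR unadjusted p = 0.0243, without *Sirt6* cKO 2). Transcripts of 16 other genes held 42.2% of the 50-base words of *Odc1*, so part of its reads may be placed elsewhere.

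Some markers of macrophages and dendritic cells were lower beside *Srm* and *Odc1*. Of these 5 markers 3 passed, *Lyz2* (-1.02), *Cd68* (-1.25) and *Adgre1* (-1.12), against 3.32% of all genes tested that were lower, and *Csf1r* (-0.56) and *Itgax* (-0.20) did not. None was at 0 in any library, and the summed level was 2939 to 4851 CPM in WT and 1871 to 2010 CPM in the libraries labelled *Sirt6* cKO. The part of such cells in the values of *Srm* and *Odc1* was not tested. Of 6 thymocyte markers, 3 B cell markers and 4 markers of fibroblasts and endothelial cells, 0 passed the unadjusted threshold with edgeR. Their median log2 fold changes were -0.37, -0.37 and 0.19. The summed level of the thymocyte markers was 956 and 666 CPM in WT and 790 and 483 CPM in the libraries labelled *Sirt6* cKO. That of the B cell markers was 119 and 81.1 CPM against 88.2 and 57.4 CPM. The part of these cells in the values of the members was not tested. Of the 4 genes listed for cortical thymic epithelial cells 2 passed, both higher, *Foxn1* (0.83) and *Ly75* (1.14), against 5.27% of all genes tested. *Prss16* (-0.41) and *Psmb11* (-0.25) did not pass. Foxn1-Cre was used to delete *Sirt6* in thymic epithelial cells, and which of the sorted cells carried the *Foxn1* counts was not tested. The part of cortical cells in these values was not tested. The list had summed levels of 453 to 463 CPM in WT and 460 to 678 CPM in the libraries labelled *Sirt6* cKO.

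*Sms*, which makes spermine from spermidine, lies at chrX:157443855-157492287 on the minus strand. It had 1866 and 1641 counts in the WT libraries against 2248 and 1696 in those labelled *Sirt6* cKO. Only *Sirt6* cKO 1 stood out as high, and the groups overlapped, with a log2 fold change of 0.23 (SE 0.29, 95% interval -0.50 to 0.96). Transcripts of 6 other genes, *Sms-ps* the most, held 28.7% of the 50-base words of *Sms*.

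**Figure D3:**
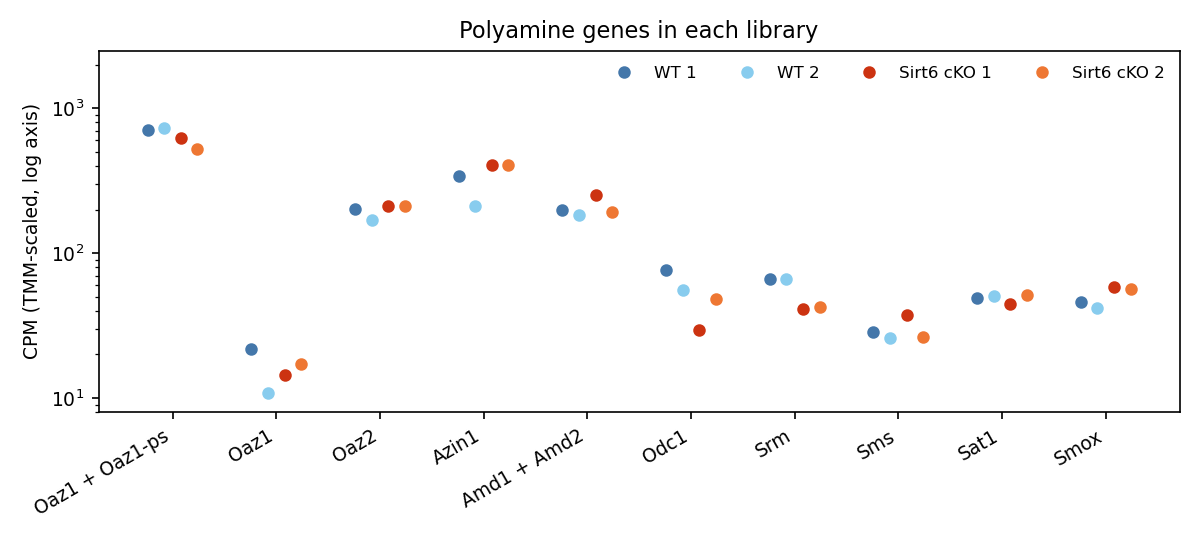
CPM of each member in the 4 libraries (log axis), with 1 point and colour for each library and *Amd1* and *Amd2* drawn as their sum. *Srm* lay at 66.0 and 66.3 CPM in WT and at 41.2 and 42.6 CPM in the libraries labelled *Sirt6* cKO, and *Azin1* at 342 and 211 against 407 and 409.

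Of the genes that regulate ornithine decarboxylase, none passed the unadjusted threshold with edgeR. *Azin1* (chr15:38487427-38519266, minus strand) had 22363 and 13433 counts in the WT libraries against 24570 and 26252 in those labelled *Sirt6* cKO. WT 2 was the low library, and both libraries labelled *Sirt6* cKO lay above both WT libraries. *Azin1* was at 276 ± 92.3 CPM in WT and 408 ± 1.56 CPM in the libraries labelled *Sirt6* cKO (n = 2 each), with a log2 fold change of 0.56 (SE 0.26, 95% interval -0.09 to 1.21, edgeR unadjusted p = 0.0768, adjusted p = 0.627). Without WT 1 the value was 0.93 (edgeR unadjusted p = 0.00807) and without WT 2 it was 0.26. *Azin1* overlaps *Gm49077* on the other strand over 358 bases, and the sources used here do not give the strand setting of the counting.

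*Oaz2*, another antizyme gene (chr9:65668001-65690300, plus strand), had 13292 and 10765 counts in the WT libraries against 12680 and 13513 in those labelled *Sirt6* cKO. In CPM the groups did not overlap, at 186 ± 24.0 and 210 ± 0.418 (n = 2 each), but the interval of the log2 fold change, -0.27 to 0.62 around 0.18, held 0.

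Neither catabolic gene passed the unadjusted threshold. *Smox*, which oxidizes spermine back to spermidine (chr2:131491496-131525922, plus strand), had 3000 and 2681 counts in the WT libraries against 3531 and 3637 in those labelled *Sirt6* cKO. It was 44.0 ± 2.62 CPM in WT and 57.6 ± 1.27 CPM in the libraries labelled *Sirt6* cKO (n = 2 each), without overlap, a log2 fold change of 0.39 (SE 0.22, 95% interval -0.16 to 0.94). *Sat1*, which acetylates spermidine and spermine for export or oxidation (chrX:155213132-155216449, minus strand), had 3200 and 3197 counts in the WT libraries against 2693 and 3317. The groups of *Sat1* overlapped, and the log2 fold change was -0.04 (SE 0.23, 95% interval -0.61 to 0.53).

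**Figure D4:**
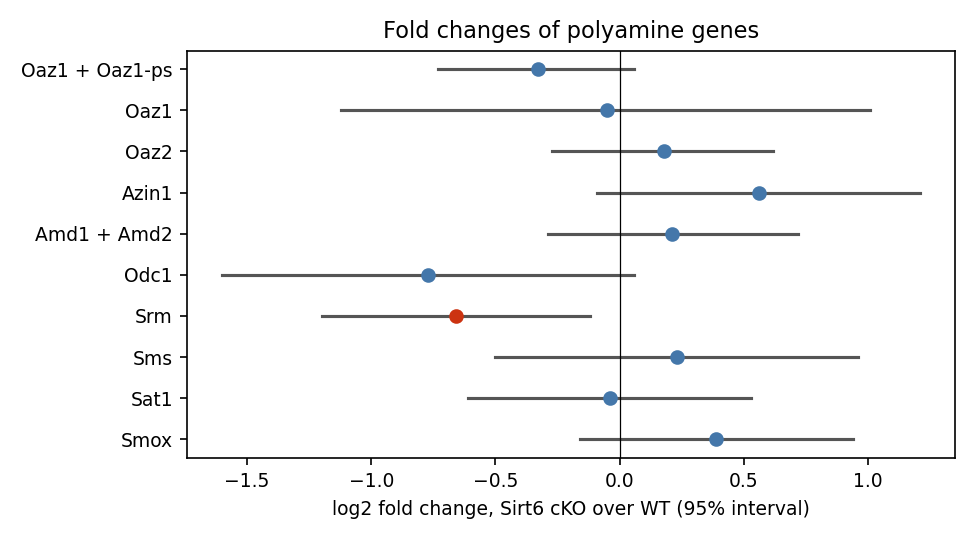
Log2 fold changes of the members and of the summed copies, libraries labelled *Sirt6* cKO over WT, with bars for the 95% intervals from edgeR, *Srm* in red and the axis in log2 units. The interval of *Srm*, -1.20 to -0.12, was the only one among the 8 members other than *Amd1* and *Amd2* that left out 0.

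Levels can be compared between genes per length, in TPM. In WT the order of the means was *Oaz1* plus *Oaz1-ps* at 1648 ± 73.6 TPM, *Oaz2* at 222 ± 24.1 TPM, *Amd1* plus *Amd2* at 132 ± 4.71 TPM, *Azin1* at 123 ± 38.6 TPM and *Srm* at 110 ± 2.56 TPM (n = 2 each). *Amd1* plus *Amd2*, *Azin1* and *Srm* followed each other with overlapping values. *Sat1* at 97.8 TPM, *Odc1* at 56.9 TPM, *Smox* at 48.0 TPM and *Sms* at 17.7 TPM came next, without overlap between neighbours. In the libraries labelled *Sirt6* cKO the antizyme pair at 1301 ± 151 TPM and *Oaz2* at 249 ± 1.66 TPM again came first. *Azin1*, at 181 TPM, stood above *Amd1* plus *Amd2*, at 152 TPM. *Sat1*, at 94.4 TPM, stood above *Srm*, at 68.9 TPM, and *Smox*, at 62.9 TPM, above *Odc1*, at 33.3 TPM, with *Sms* last at 20.6 TPM and no overlap between neighbours. The change of order between the groups was not tested.

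The genes whose levels over the 4 libraries were nearest to those of a member were sought by Euclidean distance of centred log2 CPM. For *Srm* these were *Rpp30*, *Rtn4* and *Dusp27* (distances 0.02 to 0.05). For *Amd1* they were *Cyp2c44*, *Ccna1* and *Oprk1* (0.98 to 1.05), of which *Ccna1* and *Oprk1* had 0 counts in both libraries labelled *Sirt6* cKO. For *Amd2* the nearest, *Atp2b3*, *Gm10532* and *Gm10485*, were at distances of 6.74 to 7.03 and had 0 counts in both WT libraries. These are descriptions over 4 libraries that share a depth and a group structure.

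The rest of the pathway was described through 41 genes in 6 lists, of which 38 were tested. With edgeR 2 passed the unadjusted p, both higher, which is 5.26% beside 5.27% of all genes tested that were higher, and 0 passed the adjusted p with edgeR or DESeq2, which also had 2 at the unadjusted p. The median log2 fold change was -0.04. *Mat2a*, which makes the S-adenosylmethionine that *Amd1* and *Amd2* decarboxylate, had 17859 and 17667 counts in the WT libraries against 22200 and 24394 in those labelled *Sirt6* cKO. It rose by 0.44 on the log2 scale (SE 0.15, edgeR unadjusted p = 0.0286, adjusted p = 0.548), from 275 ± 3.38 to 374 ± 8.84 CPM (n = 2 each). *Mat2a* did not pass with upper quartile scaling, with library size alone or with any library left out. *Eif5a2*, a copy of the translation factor that carries hypusine, a residue made from spermidine, had 724 and 555 counts in the WT libraries against 1665 and 1277. It rose by 1.26 (SE 0.34, edgeR unadjusted p = 0.0114, adjusted p = 0.541), from 9.89 ± 1.65 to 23.7 ± 5.43 CPM (n = 2 each), and its groups did not overlap. *Eif5a2* did not pass without WT 2 or without *Sirt6* cKO 1.

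The other lists of the pathway gave no further call at the unadjusted p with edgeR. In the methionine cycle 1 of 10 was called, *Mat2a*, and the lowest fold change was that of *Bhmt*, a methyltransferase that remakes methionine, at -1.05 (SE 0.83). The value of *Bhmt* was -0.27 without *Sirt6* cKO 1 and -2.88 (edgeR unadjusted p = 0.00542) without *Sirt6* cKO 2. The list for ornithine supply also held *Agmat*, which makes putrescine rather than ornithine. That list had 7 genes tested and 0 called, from *Agmat* at -1.53 (SE 0.78) to *Oat* at 0.11 (SE 0.20). The value of *Agmat* was -2.11 without WT 1 and -0.63 without WT 2. Salvage of methylthioadenosine, the by-product of spermidine and spermine synthesis, had 6 tested and 0 called, from *Apip* at -0.85 (SE 0.60) to *Enoph1* at 0.29 (SE 0.31). The other catabolic and antizyme genes had 4 of 6 tested and 0 called, between *Aoc1* at -0.12 (SE 0.21) and *Azin2* at 0.18 (SE 0.32). The list for polyamine transport, which also held carriers of cationic amino acids, had 7 tested and 0 called. Its values ran from *Slc3a2* at -0.24 (SE 0.37) to *Slc18b1* at 1.08 (SE 1.34). *Slc18b1* had 8 counts in WT 2, and was at 3.84 (edgeR unadjusted p = 0.0365) without WT 1 and at 0.19 without WT 2. Of the 4 hypusine genes, 1 was called, *Eif5a2*, and *Eif5a* itself was at -0.18 (SE 0.21).

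**Figure D5:**
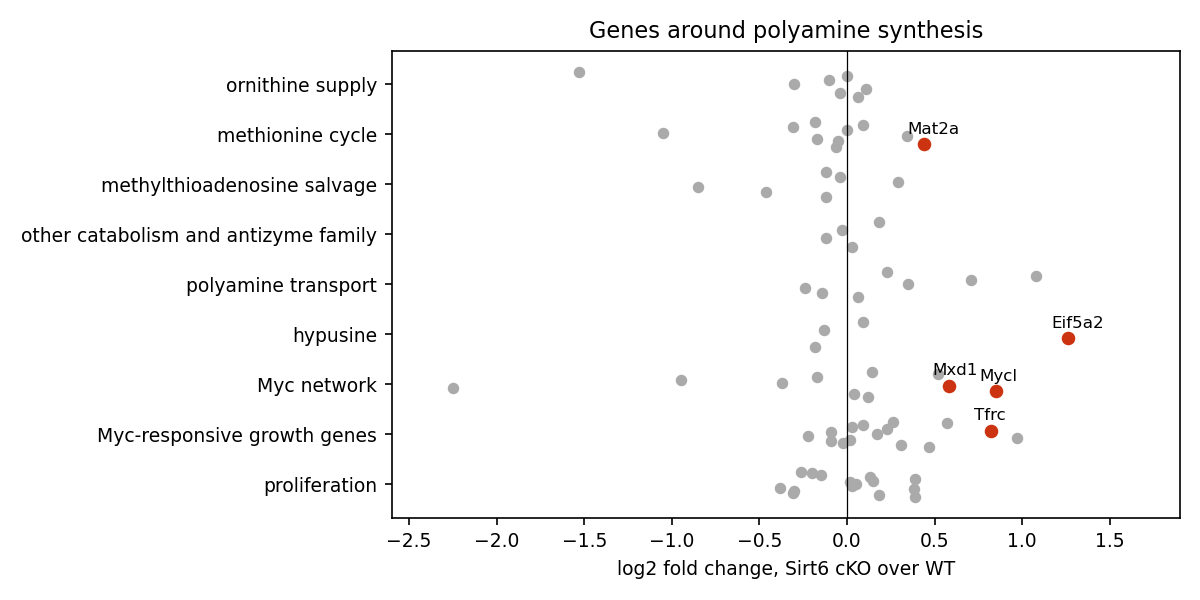
Log2 fold changes, libraries labelled *Sirt6* cKO over WT, of the tested genes in the 6 pathway lists and the 3 growth lists, 1 point for each gene, with red, named points for those at an edgeR unadjusted p under 0.05. The 5 red points, among them *Eif5a2* at 1.26 and *Mxd1* at 0.58, lie above 0.

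Polyamine synthesis genes are known Myc targets and follow growth, so 40 genes in 3 growth lists were read beside them. With edgeR 3 passed the unadjusted p, all higher (7.5%, median log2 fold change 0.07), near the 5.27% of all genes tested that were higher, and 0 passed the adjusted p with edgeR or with DESeq2, which also had 3 at the unadjusted p. *Mxd1*, a Max partner that opposes Myc, rose from 649 ± 6.49 to 974 ± 30 CPM (n = 2 each), a log2 fold change of 0.58 (SE 0.14, edgeR unadjusted p = 0.00661). *Mycl*, a relative of Myc, rose by 0.85 (SE 0.29), and *Tfrc*, the transferrin receptor, by 0.82 (SE 0.29). With a library left out *Mxd1* passed each time, *Mycl* did so without WT 1 alone, and *Tfrc* without WT 1 or *Sirt6* cKO 2. *Myc* itself was at 0.12 (SE 0.21). *Max* had 9333 and 1477 counts in the WT libraries against 427 and 1776 in those labelled *Sirt6* cKO, so that WT 1 alone was high, and its fold change was -2.25 (SE 1.02), or -3.03 without WT 2 and -3.56 without *Sirt6* cKO 2, where it passed. Among the Myc-responsive growth genes, *Cad* at 0.97 (SE 0.45), or 1.39 without *Sirt6* cKO 2, where it passed, and *Eif4e* at -0.22 marked the ends. Of 15 proliferation genes 0 passed with edgeR, from *Birc5* at -0.38 (SE 0.63) to *Mki67* at 0.39 (SE 0.47). Their median level set WT 1 and *Sirt6* cKO 1 apart from the other libraries of their groups, with deviations in log2 CPM of 0.54 and -0.46 in WT and of 0.49 and -0.44 in the other group. *Tfrc* and *Eif5a2* were likewise higher in library 1 than in library 2 of each group, and the part of proliferation in their values was not tested.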

How the data were processed

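RNA-seq of sorted mTECs was analysed in 4 libraries (2 of each label). After trimming with Trim Galore, the authors used HISAT2 2.1.0 to place reads on mm10 and StringTie 1.3.3 to quantify genes. The gene annotation and the strand setting are not given in the sources used here. The deposited counts are whole numbers per gene without normalization. The deposited TPM values, another unit, were scaled by the authors to 1000000 in each library, and 1 line per file that held the column total was left out.

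Counts were tested with edgeR 4.0.16 in R 4.3.3 (TMM, filterByExpr with minima of 10 counts and of 15 in total, glmQLFit and glmQLFTest), with Benjamini-Hochberg adjustment over 18547 genes. A gene was called at an unadjusted p under 0.05. The biological coefficient of variation was 0.557. Exact two-sided permutation of 2 libraries against 2 cannot go below p = 0.333. Replicate libraries differed beyond sampling noise (chi-square per gene 167 and 168). The floor of 3 counts and the 95% binomial intervals of shares cover counting error only. The edgeR fit was also tested on simulated data.

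Alternatives were DESeq2 1.42.0, no filter on low counts, TPM over 0.1 in all libraries, upper quartile scaling, scaling by library size, a replicate block, limma 3.58.1 on log2 TPM with a pseudocount of 1 or 0.1, and leaving out each library. With 1 library left out, the lone library of its group is assumed to vary like the other group. A limma fold change is on that log2(TPM + pseudocount) scale and understates changes of low genes.

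The members and lists were chosen with earlier results of these data known. The text names all members, *Sirt6*, the called genes of each pathway and growth list and those with the highest and lowest fold change, and for *Amd1*, *Amd2* and *Srm* the 3 nearest genes, while those of *Odc1* are not reported here. *Myc*, *Ahcyl2*, *Slc7a2* and the marker genes were named after their values were seen. Older symbols were matched by name (*Aoc1* as *Abp1*, *Azin2* as *Adc*, *Slc18b1* as *1110021L09Rik*, *Mycl* as *Mycl1*, *Adgre1* as *Emr1*). Transcripts were compared with GENCODE M21 on GRCm38 by Biopython 1.88, and promoter windows came from RefSeq on GRCm38.p6.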

Additional observations from a re-analysis of the deposited data

How the results depend on the processing

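For 30 genes or sums (the 8 members other than *Amd1* and *Amd2*, *Oaz1* plus *Oaz1-ps*, *Sirt6*, and the called, highest and lowest genes of the pathway and growth lists), 303 of 359 values under up to 12 alternatives kept their direction and their side of the unadjusted threshold of 0.05, 20 lost the threshold, 18 gained it and 18 changed sign. Of the 8 members other than *Amd1* and *Amd2*, 1 was called by edgeR, against 2 with DESeq2, 2 with library size alone, 0 with the replicate block, 3 with limma on log2(TPM + 1), 3 on log2(TPM + 0.1), and 0 to 1 with a library left out (0 without WT 2 or *Sirt6* cKO 1, *Azin1* without WT 1 and *Odc1* without *Sirt6* cKO 2, never *Srm*). *Srm* had an unadjusted p = 0.051 from edgeR's model over all genes with the replicate block. *Odc1* passed in 5 of 12 alternatives and *Azin1* in 3. Of the pathway genes 2 were called, against 1 with upper quartile scaling, 1 with library size alone and 0 to 3 with a library left out, where 0 were called without *Sirt6* cKO 1, 1 without WT 2 (*Ahcyl2*), 3 without WT 1 (*Slc18b1*, *Agmat* and *Eif5a2*) and 3 without *Sirt6* cKO 2 (*Bhmt*, *Eif5a2* and *Slc7a2*), so different genes were called. Of the growth genes 3 were called, against 2 to 6, the latter without *Sirt6* cKO 2. *Amd1* plus *Amd2* went from 0.01 to 0.38 with a library left out. *Oaz1* changed sign with the replicate block (0.03), with limma at both pseudocounts (0.02 and 0.02) and with a library left out (-0.47 to 0.52). The other changes of sign came with a library left out, over -0.17 to 0.06 for *Sat1*, -0.04 to 0.44 for *Sms*, -0.36 to 0.14 for *Aoc1*, -1.50 to 0.24 for *Birc5*, -0.50 to 0.11 for *Eif4e*, -0.40 to 0.05 for *Eif5a*, -0.13 to 1.0 for *Mki67*, -0.04 to 0.25 for *Oat* and -0.63 to 0.26 for *Slc3a2*. The cause was not tested. Over all genes tested, same-numbered libraries did not deviate together (correlation -0.0544), although the proliferation genes did, and no source ties the numbers to a shared day or animal, so the libraries were not treated as paired. The replicate block moved the calls over all genes from 1592 to 1146. DESeq2 called 2137, and 357 genes at an adjusted p of 0.05 against 1 with edgeR, and between 735 (without *Sirt6* cKO 1) and 1762 (without WT 1) were called by edgeR with a library left out. With 2 libraries a group the 95% intervals of *Odc1* (-1.60 to 0.06), *Azin1* (-0.09 to 1.21) and *Smox* (-0.16 to 0.94) held both 0 and sizeable differences.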
